A study of Arabidopsis thaliana with 11 samples.

Results

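At 39 developmental microRNA (miRNA) genes of Arabidopsis thaliana, binding was examined for APETALA1 (AP1) and SEPALLATA3 (SEP3), both transcription factors of the MADS-domain family. The loci were MIR156A to H, MIR159A to C, MIR160A to C, MIR164A to C, MIR165A and B, MIR166A to G, MIR167A, MIR172A to E, MIR319A to C, MIR390A and B, and MIR396A and B, from 11 families. They were chosen by name, with earlier results of these data known. A peak was assigned to a locus where the deposited peak lists name that locus as a nearby gene. Of the 39 loci, 27 were named in at least 1 of 6 peak lists and 12 in none. All 39 are annotated as miRNA genes in the reference annotation, among 326 such genes and 37899 nuclear genes in all.

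A plant miRNA is cut from the hairpin of a longer primary transcript by DICER-LIKE1, loaded into an ARGONAUTE protein and used to cleave or repress messenger RNAs with a closely matching site. Many plant miRNAs silence transcription factors, so they set where and when those factors act in the meristem and the flower. MADS-domain proteins bind as dimers to CArG boxes, in which CC and GG flank a core of A and T. AP1 specifies the floral meristem and later the sepals and petals, and SEP3 joins the floral homeotic proteins into higher-order complexes.

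Inflorescences came from Landsberg plants of the genotype pAP1::AP1-GR ap1 cal, in which AP1 fused to a glucocorticoid receptor domain is driven by the AP1 promoter in an ap1 cal double mutant. Every group received dexamethasone (DEX), which lets the fusion protein enter the nucleus, and tissue was collected 2, 4 or 8 days later. The doses given for DEX in the labels, the series text and the study's methods differ, so none is stated here. AP1 was precipitated through the receptor domain, so the AP1 lists describe the fusion protein, while SEP3 was precipitated with a peptide antibody. For every factor and time point the replicates were pooled into 1 peak list, and 1 mock library with pre-immune serum was made per day. The lists of AP1 and SEP3 of a day are taken to share that control, and no spread between replicates can be given for any value. The titles of the SEP3 samples used for day 2 say day 2 but the tissue label says 4 days, and this doubt holds for each SEP3 day 2 value below. The titles name 2 replicates per factor on day 2 while the series text gives 1, so how many libraries stand behind the day 2 lists is uncertain.

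The lists held 498, 956 and 1075 peaks for AP1 on days 2, 4 and 8, and 1776, 6843 and 7815 for SEP3. The strength of a peak is given as its fold enrichment, the ratio of precipitated over control signal at the summit. Since the lists were called separately, each fold enrichment is accompanied by its percentile, the share of peaks of the same list that were lower. The depth of the libraries was not used here, and a locus missing from a short list may still be bound below its threshold. Positions refer to the TAIR10 chromosomes.

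The mature miRNAs of the loci with AP1 peaks, or with SEP3 peaks on all 3 days, are shown to make clear which loci produce one and the same regulator. The seed, bases 2 to 8, is in capitals, and each sequence was read from the reference genome at the RefSeq coordinates of the mature miRNA.
miR156 of MIR156A to MIR156F: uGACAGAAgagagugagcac
miR172 of MIR172A and MIR172B: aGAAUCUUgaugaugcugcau
miR172 of MIR172C and MIR172D: aGAAUCUUgaugaugcugcag
miR166 of MIR166A to MIR166G: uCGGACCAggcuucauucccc
miR165 of MIR165A and MIR165B: uCGGACCAggcuucauccccc
miR159 of MIR159A: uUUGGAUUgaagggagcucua
miR159 of MIR159B: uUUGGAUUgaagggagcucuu
miR319 of MIR319A and MIR319B: uUGGACUGaagggagcucccu
miR160 of MIR160A to MIR160C: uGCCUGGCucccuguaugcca
miR167 of MIR167A: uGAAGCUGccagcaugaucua
miR390 of MIR390A and MIR390B: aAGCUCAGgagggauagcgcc

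Loci with an identical product were listed unequally. All 7 MIR166 loci encode the same mature sequence, and 4 of them were listed for AP1 and 5 for SEP3. Both MIR165 loci share the seed of miR166, and MIR165A alone was listed. The 6 loci MIR156A to MIR156F encode 1 sequence and all were listed for SEP3, but only MIR156E and MIR156F for AP1. MIR156G and MIR156H carry the same seed on a different mature sequence, and neither was listed. Among the 3 MIR160 loci, which encode identical miR160, only MIR160A was listed.

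AP1 peaks were assigned to 7, 11 and 6 of the 39 loci on days 2, 4 and 8, which is 17.9%, 28.2% and 15.4%. Over all annotated nuclear genes the AP1 lists named 1.36%, 2.7% and 2.97% on these days, and over the 287 other annotated miRNA genes 0.697%, 2.44% and 1.39%. SEP3 peaks were assigned to 13, 25 and 23 loci, which is 33.3%, 64.1% and 59%. The corresponding SEP3 shares were 5.05%, 19.4% and 21.4% of all nuclear genes and 5.57%, 12.2% and 14.6% of the other miRNA genes. Over the 3 days, AP1 lists named 12 of the loci (30.8%), against 3.99% of all nuclear genes and 2.44% of the other miRNA genes. SEP3 lists named 27 (69.2%), against 23.5% and 15.3%. These shares are descriptions of single lists, and the loci were picked for their known roles. The annotation used here also holds genes that the study's annotation may not have had, which lowers the shares of both backgrounds. With the window of 3000 bp upstream to 1000 bp downstream recomputed on 1 annotation for every gene, the SEP3 day 4 shares were 64.1% of the 39 loci, 23.4% of all genes and 18.8% of the other miRNA genes. Over the 3 days the recomputed shares were 69.2%, 28.5% and 23.3% for SEP3 and 28.2%, 5.07% and 4.18% for AP1. By day, AP1 then named 17.9%, 25.6% and 12.8% of the loci, against 1.39%, 3.14% and 2.79% of the other miRNA genes. The AP1 contrast with the other miRNA genes was thus smaller than in the deposited lists.

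**Figure D1:**
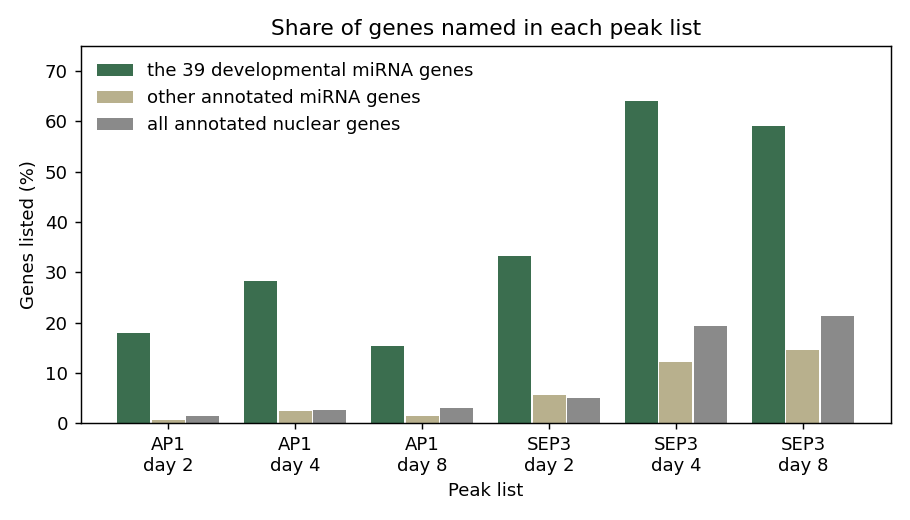
Share of genes named in each of the 6 peak lists (y axis, percent; x axis, factor and day) for the 39 developmental miRNA genes, the 287 other annotated miRNA genes and all 37899 annotated nuclear genes. The bars of the 39 genes reach 28.2% for AP1 on day 4 and 64.1% for SEP3 on day 4, and no error bars are drawn because each list pools its replicates.

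AP1 was listed on all 3 days at 3 loci, MIR156E, MIR166B and MIR166G. It was listed on days 2 and 4 but not 8 at MIR159A, MIR166C, MIR166D and MIR172D, on day 4 only at MIR159B and MIR319A, on days 4 and 8 at MIR156F and MIR167A, and on day 8 only at MIR172A. All 12 loci with AP1 were also listed for SEP3. By peak, 77.8%, 100% and 100% of the AP1 peaks at the loci overlapped a SEP3 peak on days 2, 4 and 8, beside 85.1%, 99.8% and 96.3% of all AP1 peaks, so the joint presence was near that of the whole lists. SEP3 was listed on all 3 days at 12 loci, of which MIR160A, MIR165A and MIR390A had no AP1 peak. A further 9 loci were listed for SEP3 on days 4 and 8 but not 2. The SEP3 list held 1776 peaks on day 2 and 6843 on day 4, and named 5.05% and 19.4% of all nuclear genes. How many of all listed genes share each of these day patterns was not computed. The patterns therefore describe the lists and are no time course of these loci.

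**Figure D2:**
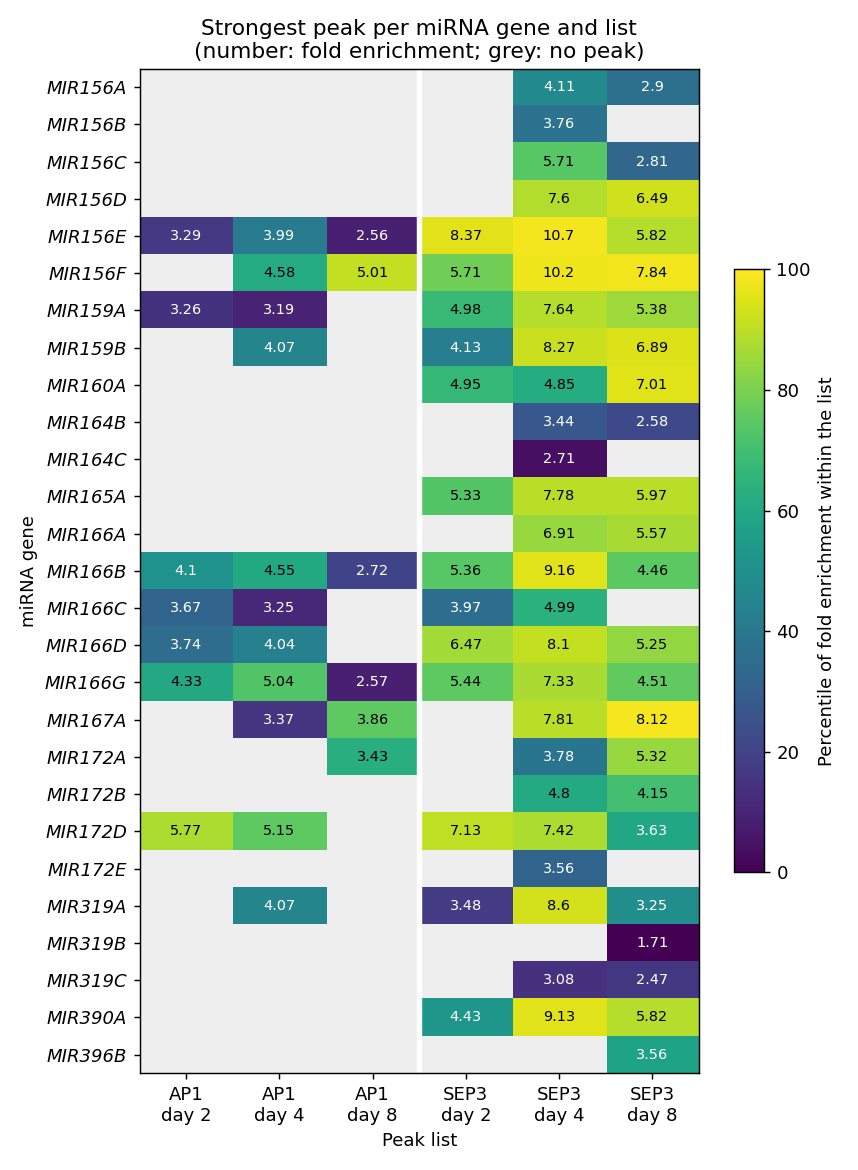
Strongest peak of each of the 27 listed miRNA genes (rows) in each of the 6 lists (columns). Colour gives the percentile of fold enrichment within the list, the printed number is the fold enrichment, and grey marks no peak. The highest percentile was 98.5, for SEP3 at MIR167A on day 8, followed by 98.4 for SEP3 at MIR156E on day 4.

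The age pathway rests on miR156, which represses SPL genes, and on miR172, which acts later and represses AP2-like genes. MIR156E (AT5G11977, precursor at chr5:3867207-3867313) was the MIR156 locus called in most lists. Its main region, chr5:3865294-3866001, was found in all 6, with summits 1465 to 1502 bp upstream of the precursor start. SEP3 fold enrichment there was 8.37, 10.7 and 5.82 on days 2, 4 and 8, at percentiles 95.4, 98.4 and 88.7. The AP1 values were low within their lists, with folds of 3.29, 3.99 and 2.56 at percentiles 16.5, 41.7 and 8.7. A separate SEP3 peak 2421 to 2490 bp upstream had percentiles of 16.3, 70.4 and 83.6 on the 3 days, without an AP1 peak.

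MIR156F (AT5G26147, precursor at chr5:9136106-9136237) had a single region, chr5:9133114-9133626, with summits 2723 to 2776 bp upstream. SEP3 folds were 5.71, 10.2 and 7.84 (percentiles 78.5, 97.4 and 97.8), and AP1, not called on day 2, reached 4.58 and 5.01 on days 4 and 8 (percentiles 61.7 and 90.7). That day 8 value was the highest AP1 percentile at any of the 39 loci. The gene nearest to these summits was not MIR156F but the protein-coding AT5G26140, 1447 bp from the SEP3 day 4 summit. MIR156A to MIR156D were listed for SEP3 and not for AP1. At MIR156D (AT5G10945) SEP3 reached folds of 7.6 and 6.49 on days 4 and 8 1044 and 1065 bp upstream (percentiles 88.6 and 92.6), where the nearest gene was again another one, AT5G10946. MIR156C (AT4G31877) had percentiles of 73.9 on day 4 and 33.2 on day 8 at its peak 542 to 546 bp upstream, and a day 4 peak of fold 4.8 lay 2753 bp past its start. MIR156A (AT2G25095) had folds of 4.11 and 2.9 on these days, with the summit nearest to the start at 368 bp upstream, and MIR156B (AT4G30972) a fold of 3.76 on day 4 alone, 861 bp past its start.

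MIR172D (AT3G55512, precursor at chr3:20587904-20588027) carried the strongest AP1 peaks of any listed locus on days 2 and 4. At chr3:20585591-20586318, 2020 to 2065 bp upstream, AP1 folds were 5.77 and 5.15 (percentiles 87.6 and 75.3), and no AP1 peak was called on day 8. SEP3 at the same region had folds of 7.13, 7.42 and 3.63 on days 2, 4 and 8, at percentiles 90.4, 87.8 and 59.5. A second SEP3 region 327 to 392 bp upstream was called on days 2 and 4 (folds 3.48 and 6.32) and not on day 8, and a region downstream of the precursor had folds of 4.46, 5.46 and 2.88. A weak SEP3 peak 1213 bp upstream was listed on day 4 (fold 3.01). Each region of MIR172D ranked lower on day 8 than on day 4 or was no longer called. An annotated long noncoding RNA, AT3G08495, lay closer to the AP1 summits than MIR172D, at 145 bp on day 2.

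MIR172A (AT2G28056, precursor at chr2:11942914-11943015) showed the opposite order of days at its strongest region. Its AP1 peak appeared on day 8 alone, with a fold of 3.43 at percentile 62.6, and lay 1797 bp past the precursor start. The long noncoding RNA AT2G08215 lay closer, 78 bp from that summit. The summit was 1696 bp past the precursor end, so with the window recomputed to 1000 bp downstream MIR172A held no AP1 peak. SEP3 at that region had folds of 3.78 on day 4 and 5.32 on day 8, at percentiles 39 and 84.5, and was not called on day 2. The other SEP3 peaks of MIR172A were weak. A downstream region gave 3.44 and 2.51 on days 4 and 8 (percentiles 27.3 and 18.1), so it ranked lower on day 8. Single peaks gave 2.17 on day 4 and 2.17 on day 8, at percentiles 0.27 and 3.58. MIR172B (AT5G04275) had SEP3 folds of 4.8 and 4.15 on days 4 and 8 at 688 and 715 bp past its start. MIR172E (AT5G59505) had 1 SEP3 peak, of fold 3.56 on day 4, whose summit lay 2774 bp upstream in a UTR of AT5G59500. MIR172C was in no list.

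miR165 and miR166 restrict the HD-ZIP III transcripts that specify the upper side of lateral organs and the meristem. This family held 9 loci and 4 of the 12 with AP1. MIR166B (AT3G61897, precursor at chr3:22922206-22922325) was bound in all 6 lists at chr3:22920947-22922029, with summits 611 to 754 bp upstream. The SEP3 folds were 5.36, 9.16 and 4.46 (percentiles 73.9, 95.1 and 74.9), and the AP1 folds 4.1, 4.55 and 2.72 (percentiles 51, 60.8 and 20.1). Weak SEP3 peaks 2076 and 2958 bp upstream were listed once each, on day 4 (fold 3.31) and day 8 (fold 3.07). MIR166G (AT5G63715, precursor at chr5:25504798-25504919) was bound in all 6 lists as well, at chr5:25504188-25504894, within 413 bp of its start. SEP3 folds were 5.44, 7.33 and 4.51 (percentiles 75.2, 87.3 and 75.6). AP1 folds at the strongest peak were 4.33, 5.04 and 2.57 (percentiles 60.3, 72.8 and 8.98), and day 2 held a separate AP1 peak of fold 3.15 in the same region. At both loci the percentiles of AP1 and of SEP3 were highest on day 4. Downstream of MIR166G, AP1 (fold 3.45) and SEP3 (fold 5.27) were listed on day 4 only, with AT5G63720 as the nearest gene. A SEP3 region with summits 1305 and 1331 bp upstream had folds of 4.76 and 2.8 on days 4 and 8.

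MIR166C (AT5G08712) and MIR166D (AT5G08717) lie in tandem on chromosome 5, with precursors at chr5:2838635-2838773 and chr5:2840622-2840734. The region between them, chr5:2838986-2839447, was assigned to both, so it counts as 1 peak and for 2 loci. It had AP1 folds of 3.67 and 3.25 on days 2 and 4 and SEP3 folds of 3.97 and 4.99, and no day 8 list held it. It is the only region of MIR166C, and its summits lay within the long noncoding RNA AT5G01575. MIR166D had a further region 200 to 252 bp upstream, with AP1 folds of 3.74 and 4.04 on days 2 and 4 and SEP3 folds of 6.47, 8.1 and 5.25 on days 2, 4 and 8 (percentiles 86.2, 90.9 and 83.8). Another region, 553 to 647 bp past its start, held AP1 on day 2 (fold 3.07) and SEP3 on days 2 and 4 (folds 3.29 and 5.5). None of the regions of this tandem pair held AP1 on day 8.

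MIR166A (AT2G46685) had no AP1 peak but 5 SEP3 peaks on day 4 and 2 on day 8, the largest number for a single list. The strongest, 1231 to 1242 bp upstream, had folds of 6.91 and 5.57 (percentiles 84.6 and 86.9), and the others lay between 2.75 and 3.57. MIR165A (AT1G01183, precursor at chr1:78927-79037) had 1 SEP3 region, 618 to 624 bp upstream at chr1:79445-79880, with folds of 5.33, 7.78 and 5.97 at percentiles 73.2, 89.7 and 89.7. The summits lay in an exon of the noncoding gene AT1G08765. MIR165B was named in no list, although a SEP3 summit of day 4 lay 1201 bp past its precursor. MIR166E and MIR166F were also absent.

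miR159 silences GAMYB-like MYB genes, and miR319, of related sequence, silences CIN-type TCP genes of the leaf and petal. MIR159A (AT1G73687, precursor at chr1:27713233-27713416) was overlapped in part on day 4 by a SEP3 peak 1001 bp wide. The region chr1:27713274-27714274 held 3 narrow SEP3 peaks on day 2 with folds of 3.73, 4.98 and 4.38, and 1 peak on day 4 and on day 8 with folds of 7.64 and 5.38 (percentiles 88.8 and 85.2). AP1 folds there were 3.26 and 3.19 on days 2 and 4, at percentiles 14.7 and 9.57, with summits 549 and 628 bp upstream. The SEP3 summits of days 4 and 8 were closer, at 196 and 207 bp. A weak SEP3 peak downstream, of fold 2.78, was listed on day 4. MIR159B (AT1G18075, precursor at chr1:6220646-6220841) had 1 region, chr1:6219294-6219790, 1111 to 1142 bp upstream. SEP3 folds were 4.13, 8.27 and 6.89 (percentiles 42.8, 91.8 and 94.6), and AP1 was listed on day 4 with a fold of 4.07. At both loci SEP3 ranked higher on day 4 than on day 2, as did 87.6% of all SEP3 peaks found on both days. Long noncoding RNAs AT1G05373 and AT1G05377 are annotated at the summits, and the neighbours AT1G18070 and AT1G18080 were named for the same peaks. MIR159C was in no list.

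MIR319A (AT4G23713, precursor at chr4:12352956-12353131) ranked highest on day 4. At chr4:12352105-12352668, 585 to 605 bp upstream, SEP3 had folds of 3.48, 8.6 and 3.25, or percentiles 17.2, 93.1 and 49.4, and AP1 was listed on day 4 only with a fold of 4.07 at percentile 45.7. MIR319B (AT5G41663) and MIR319C (AT2G40805) had weak SEP3 peaks near their precursors. MIR319B was listed on day 8 alone with a fold of 1.71, rank 7813 of 7815, at 117 bp upstream. MIR319C had folds of 3.01 and 3.08 on day 4 and 2.47 on day 8, with the nearest summit 48 bp upstream.

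miR160 and miR167 act on auxin response factors, miR160 on repressors and miR167 on the activators ARF6 and ARF8 of flower maturation. MIR167A (AT3G22886, precursor at chr3:8108072-8108209) was listed on days 4 and 8 only. At chr3:8109179-8109808, 1454 to 1509 bp past the precursor start, SEP3 folds were 7.81 and 8.12 on days 4 and 8 (percentiles 89.8 and 98.5) and AP1 folds 3.37 and 3.86 (percentiles 15.5 and 75.3). These summits lay 1317 to 1372 bp past the precursor end, outside a window of 1000 bp downstream. With the window recomputed to that limit, MIR167A held no AP1 peak on day 4. Upstream, at chr3:8106030-8106604, SEP3 folds were 4.97 and 6.23 (percentiles 63.7 and 91.3), and AP1 was added on day 8 with a fold of 3.2. Both regions ranked higher on day 8 than on day 4 for SEP3. A SEP3 peak of fold 2.34 was listed 321 bp upstream on day 8. MIR160A (AT2G39175, precursor at chr2:16340279-16340363) had SEP3 folds of 4.95, 4.85 and 7.01 at chr2:16339046-16339895, 963 to 970 bp upstream within the long noncoding RNA AT2G09010. The percentile was 66.7 on day 2, 61.9 on day 4 and 95.2 on day 8. Day 4 added peaks of folds 3.37 and 2.73 at this locus, which day 8 did not hold. MIR160B and MIR160C were in no list.

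miR390 starts the production of small RNAs from TAS3 transcripts, miR164 trims the domain of the CUC boundary genes, and miR396 limits growth through the GRF genes. MIR390A (AT2G38325, precursor at chr2:16061954-16062060) had SEP3 folds of 4.43, 9.13 and 5.82 at chr2:16060874-16061296, 843 to 853 bp upstream, at percentiles 52.9, 95 and 88.7, and a weak peak of fold 2.35 on day 8. It was not listed for AP1. MIR164B (AT5G01747) had SEP3 folds of 2.48 to 3.44 over days 4 and 8, with the nearest summit 635 bp upstream. MIR164C (AT5G27807) had 2 SEP3 peaks of folds 2.49 and 2.71 on day 4, at percentiles 1.42 and 4.01. MIR396B (AT5G35407) was listed once, for SEP3 on day 8, with a fold of 3.56 and the summit 977 bp past its start. MIR164A, MIR390B and MIR396A were in no list.

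The 12 loci that no list named were MIR156G, MIR156H, MIR159C, MIR160B, MIR160C, MIR164A, MIR165B, MIR166E, MIR166F, MIR172C, MIR390B and MIR396A. Besides MIR165B, the closest summit lay 3630 bp from the precursor at MIR159C and 145101 bp away at MIR396A. The others lay between 4489 and 13587 bp away. With the window of 3000 bp upstream to 1000 bp downstream recomputed on this annotation, no called summit lay inside it at these loci either.

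In all, the 6 lists held 130 peaks at the loci, or 134 pairs of a peak and a locus, since 4 peaks were assigned to both MIR166C and MIR166D. By list there were 9, 12 and 7 AP1 peaks and 19, 46 and 37 SEP3 peaks on days 2, 4 and 8. Merged where they overlapped, they formed 56 regions. SEP3 was present at all 56 in at least 1 list and AP1 at 15, so 41 regions had SEP3 alone. By peak, 36.8%, 26.1% and 18.9% of the SEP3 peaks at the loci overlapped an AP1 peak on days 2, 4 and 8. Over all SEP3 peaks these shares were lower, at 23.3%, 13.2% and 12%. Since both factors of a day are taken to share 1 mock library, this joint presence may not be an independent count. The regions of MIR156E, MIR166B and MIR166G described above were the 3 found in all 6 lists. AP1 was listed on 1 day at 6 regions and on 2 days at 6, and SEP3 on 1, 2 and 3 days at 26, 16 and 14 regions.

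Most summits lay upstream of the precursor, where the window used to name genes is longer (3000 bp, against 1000 bp downstream). No such share was computed over all genes, so the counts show no preference for upstream sites. Of the 134 pairs, 53 were within 1000 bp upstream, 50 farther upstream, 22 within 1000 bp downstream and 9 beyond that, and none fell inside a precursor. The 9 far downstream summits belonged to MIR156C, MIR167A and MIR172A. The annotation gives the hairpin precursor and not the start of the primary transcript, so distances to the promoter are not known from it. Of the 130 peaks, 109 summits were intergenic, 19 in exons of other noncoding genes, 1 in a UTR and none in a coding exon. The remaining summit, at MIR156D, was in an intron of the protein-coding gene AT5G10946. Other genes were named alongside the miRNA locus for 83 peaks, and the miRNA gene was the nearest annotated gene for 75, so an assignment to the miRNA gene is not exclusive.

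**Figure D3:**
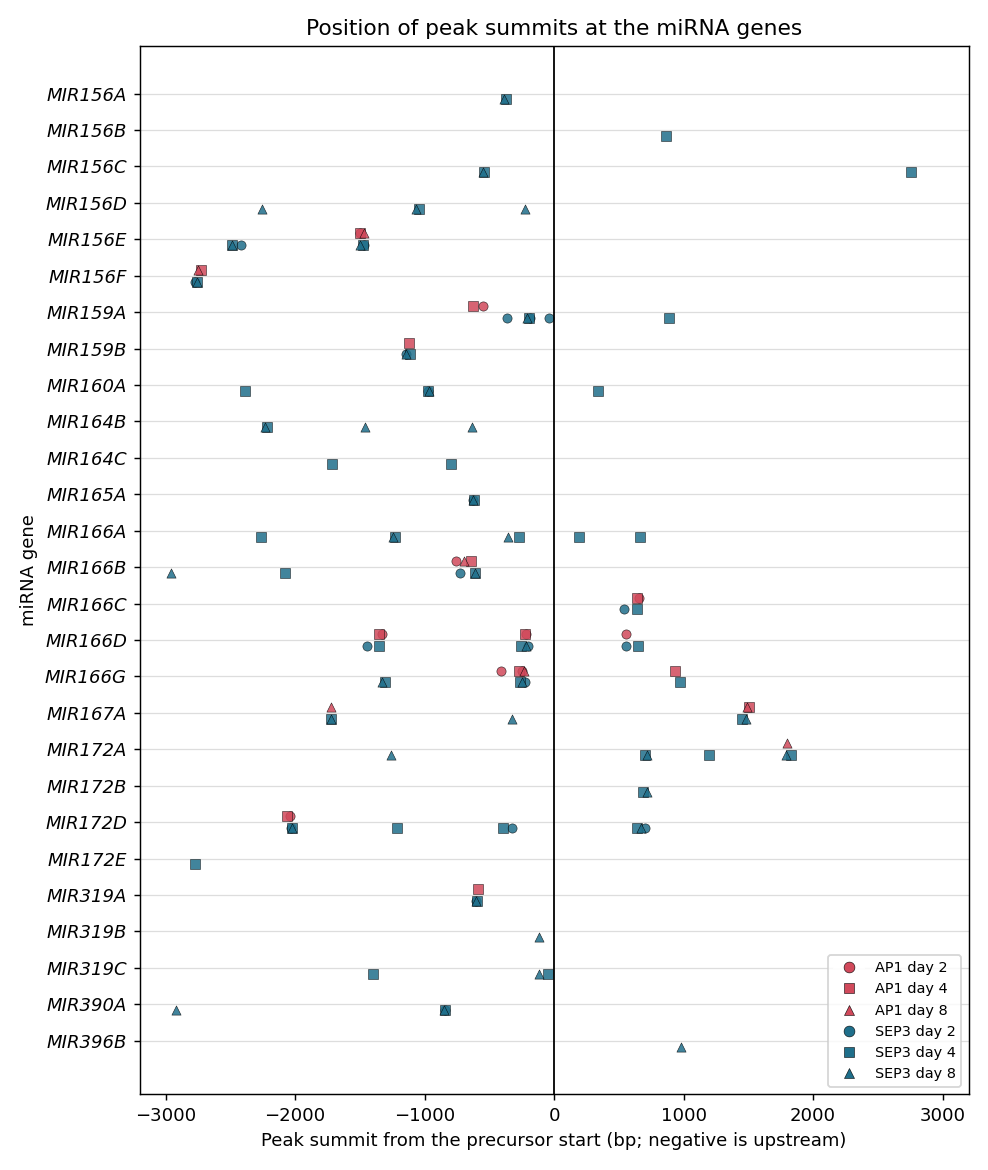
Position of every peak summit at the 27 listed miRNA genes (rows), in bp from the precursor start along the strand of the gene (x axis, negative is upstream). Symbols mark the day and colours the factor. Summits of several lists fall on the same position at most loci, such as 611 to 754 bp upstream at MIR166B, and MIR167A and MIR172A carry AP1 and SEP3 summits more than 1000 bp past the precursor start.

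Within their lists, peaks at the loci covered the whole range of strength. The median percentile of AP1 peaks was 32.4, 44.8 and 52.7 on days 2, 4 and 8, and that of SEP3 peaks 54, 61.4 and 58, where all peaks of a list have a median of 50. The strongest SEP3 peak per locus had a median percentile of 73.2, 87.3 and 83.8, and the strongest AP1 peak 35.7, 45.7 and 41.3. Taking the best of several peaks at a locus raises this value, so 50 is not its benchmark. The percentile of 90 was reached by 0 of 9, 0 of 12 and 1 of 7 AP1 peaks on days 2, 4 and 8. For SEP3 it was reached by 2 of 19, 7 of 46 and 6 of 37 peaks. The raw counts differ partly because SEP3 had more peaks at the loci. SEP3 percentiles ranged from 0.27 to 98.4 on day 4 and from 0.032 to 98.5 on day 8.

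A smaller share of the peaks at these loci was found again from day 4 to day 8 than from day 2 to day 4. Of the 12 AP1 peaks of day 4, 5 overlapped an AP1 peak of day 8 (41.7%), against 66.1% of all AP1 peaks of day 4. Of the 46 SEP3 peaks of day 4, 27 were found on day 8 (58.7%), against 86.8% of all. Most peaks without a counterpart were weak. Among SEP3 peaks below the median of the day 4 list, 6 of 20 at the loci (30%) and 76.2% of all peaks were found on day 8, and at or above the median 21 of 26 (80.8%) and 97.5%. The SEP3 exceptions above the 70th percentile were the region 327 to 392 bp upstream of MIR172D (79.9) and the downstream region of MIR166D (71.4). For AP1, 7 regions of day 4 had no counterpart, 6 of them below the median, and the exception was the region 2020 to 2065 bp upstream of MIR172D (75.3). These 3 regions had all been called on day 2 for the same factor. Between days 2 and 4 retention was high, with 8 of 9 AP1 peaks (88.9%, all peaks 83.5%) and 19 of 19 SEP3 peaks (100%, all peaks 90.7%). The lists also grew between these days, from 498 to 956 peaks for AP1 and from 1776 to 6843 for SEP3. In the other direction no deficit was seen. Of the day 8 peaks, 5 of 7 for AP1 (71.4%, all peaks 58.7%) and 28 of 37 for SEP3 (75.7%, all peaks 74.8%) overlapped a day 4 peak. New SEP3 regions numbered 29 on day 4 and 10 on day 8, and 20 and 9 of these lay below the median of their list. The same share over all new peaks was not computed, so these counts show nothing particular to the loci.

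Among regions called on both days 4 and 8, the SEP3 percentile was higher on day 8 at 12 and lower at 15. The largest differences downwards were at MIR319A (43.7 percentile points), MIR156C (40.8), the downstream region of MIR172D (34.6) and its upstream region (28.3). The largest upwards were at MIR172A (45.5), MIR166A (34.6), MIR160A (33.3) and the upstream region of MIR167A (27.7). For AP1, 5 regions were called on both days. The percentile was lower on day 8 by 63.8 points at MIR166G, 40.7 at MIR166B and 33 at MIR156E, and higher by 59.8 at MIR167A and 29 at MIR156F. Of all peaks found again on day 8, 53.8% of the AP1 and 58.1% of the SEP3 peaks had a higher percentile there. Between days 2 and 4, the SEP3 percentile was higher on day 4 at 15 of 17 regions, and the same held for 87.6% of all SEP3 peaks found on both days.

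**Figure D4:**
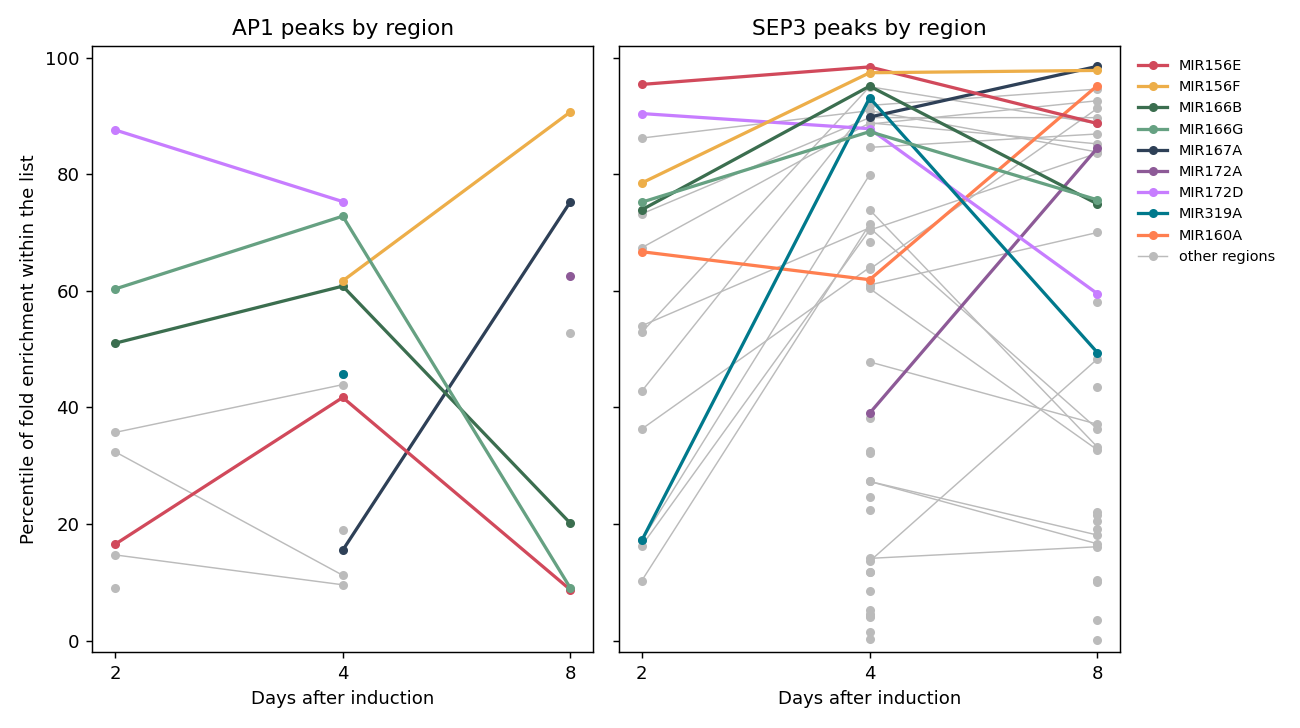
Percentile of fold enrichment within the list (y axis) of each region on days 2, 4 and 8 (x axis), for AP1 and SEP3. Lines join days on which the same region was called. Coloured lines are the region called in most lists at 9 named loci and grey is the rest. AP1 at MIR156F and MIR167A lies higher on day 8 than on day 4, while MIR166B, MIR166G and MIR156E lie lower.

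Exact CArG boxes were rare at these summits. The box searched was CC, 6 bases of A or T, then GG, within 50 bp of the summit, a motif that reads the same on both strands. It was found at 1 of 9, 1 of 12 and 2 of 7 AP1 peaks on days 2, 4 and 8 (11.1%, 8.33% and 28.6%), beside 7.03%, 6.17% and 5.58% of all AP1 peaks. At SEP3 peaks it was found at 1 of 19, 2 of 46 and 3 of 37 (5.26%, 4.35% and 8.11%), beside 7.09%, 6.02% and 5.81% of all. With 1 mismatch allowed the AP1 shares at the loci were 33.3%, 41.7% and 71.4% on days 2, 4 and 8, beside 33.7%, 33.4% and 31.9% of all AP1 peaks, and the day 8 share is 5 of 7 peaks. The SEP3 shares were 31.6%, 37% and 37.8%, beside 32.8%, 34.7% and 33.8%. The exact boxes fell in 3 regions, the main region of MIR156E in all 6 lists, the downstream region of MIR167A in 3 of 4 lists, and a weak day 8 region of MIR156D.

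The summit windows with an exact box on day 4 are shown because they combine a box with high SEP3 occupancy. Both are SEP3 day 4 summits with 50 bp on either side, on the forward strand of TAIR10, with the box in capitals.
MIR156E chr5:3865678-3865778: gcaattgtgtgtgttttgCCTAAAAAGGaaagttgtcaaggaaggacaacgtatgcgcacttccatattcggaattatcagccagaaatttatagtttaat
MIR167A chr3:8109476-8109576: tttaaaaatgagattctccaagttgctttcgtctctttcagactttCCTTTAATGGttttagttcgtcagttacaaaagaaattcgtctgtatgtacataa
The other regions called in all 6 lists held no exact box, and their windows, chosen after the values were seen, are given with the words that match with 1 mismatch in capitals.
MIR166B chr3:22921545-22921645: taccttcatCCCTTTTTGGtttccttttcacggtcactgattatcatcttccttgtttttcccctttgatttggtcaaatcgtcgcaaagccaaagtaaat
MIR166G chr5:25504488-25504588: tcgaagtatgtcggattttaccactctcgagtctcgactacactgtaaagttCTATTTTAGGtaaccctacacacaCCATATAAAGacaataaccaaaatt

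The word at MIR156E lay within 50 bp of the summit in each of the 6 lists, starting 9 to 46 bp before it. At MIR166G both near matches followed the SEP3 day 4 summit, starting 2 and 26 bp after it. MIR156F, with the highest AP1 percentile, had no box and no near match in its windows. These matches are descriptions of the reference sequence of another accession, and they say nothing of which bases the proteins contacted.

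The genes that these miRNAs silence were listed often. Of 53 known targets, SEP3 lists named 41 (77.4%) and AP1 lists 17 (32.1%), beside 23.5% and 3.99% of all nuclear genes. The targets were chosen with earlier results of these data known. Many are transcription factor genes, and the study reported some families of these as over-represented among AP1 and SEP3 targets. All nuclear genes are therefore not a like background, and the difference was not tested. All 6 AP2-like targets of miR172 were listed for SEP3 and AP2, TOE3 and SMZ in all 6 lists, with AP2 at percentiles of 94.8 to 98.5 for AP1. Of the SPL targets of miR156, 7 of 11 were listed for SEP3 and SPL2, SPL4, SPL5, SPL9 and SPL15 for AP1. SPL6, SPL10, SPL13A and SPL13B were in no list. The 5 HD-ZIP III targets of miR165 and miR166 were all listed for SEP3 and 3 of them, PHB, PHV and REV, for AP1. PHV reached percentile 99.9 for SEP3 on day 8.

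The miRNA loci and their targets were not always named in the same lists. SEP3 lists named 5.05%, 19.4% and 21.4% of all nuclear genes on days 2, 4 and 8, and AP1 lists 3.99% over the days. Most genes are thus absent from a given list, so an absence below is no result by itself. The 5 TCP targets of miR319 were all listed for SEP3 on days 4 and 8 and in no day 2 or AP1 list, while MIR319A had SEP3 on day 2 and AP1 on day 4. All 7 GRF targets of miR396 were listed for SEP3 and 4 for AP1, although MIR396B was listed once and MIR396A never. Of the 5 MYB targets of miR159 only MYB101 was listed, for SEP3, while MIR159A and MIR159B had SEP3 peaks on all 3 days. That share of the MYB targets, 20%, was near the 23.5% of all nuclear genes named over the SEP3 lists. ARF6, a target of miR167, was listed in all 6 lists, and its relative ARF8 for SEP3 on days 4 and 8. Of the 6 NAC targets of miR164, CUC1, CUC2 and NAC080 were listed for SEP3 and none for AP1. Of the 3 miR390-dependent transcripts, TAS3A and TAS3C were listed. The 3 targets of miR160, ARF10, ARF16 and ARF17, were listed for SEP3 on days 4 and 8 and not for AP1.

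Among 8 genes of miRNA production and action, SEP3 lists named 5 (62.5%) and AP1 lists 3 (37.5%), beside 23.5% and 3.99% of all nuclear genes. These genes too were chosen with earlier results of these data known. The AP1 genes were the ARGONAUTE genes AGO1 and AGO7 on days 4 and 8, and AGO10, which sequesters miR165 and miR166 in the meristem, on day 8. None of the 8 was in a day 2 list, and these lists named only 1.36% (AP1) and 5.05% (SEP3) of all nuclear genes. DCL1, the nuclease that cuts the precursors, was listed for SEP3 on day 8 alone at percentile 55.6, and HYL1, HEN1 and HST in no list.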

How the data were processed

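Peak lists of AP1 and SEP3 ChIP-seq, 1 per factor and day, were used. Per the labels and the study's methods, the authors called bases with CASAVA 1.7 or 1.8, mapped reads to TAIR10 with Bowtie 0.12.7, pooled replicates within factor and day, and ran the peak caller MACS2 with the mock library as control. The deposited fold enrichment is a linear ratio, and the deposited significance is −log10 of the q value. Per the study's methods, genes were named from 3000 bp upstream to 1000 bp downstream, but 9 pairs of a peak and a member in the files lie beyond 1000 bp past the precursor. Blank lines in the AP1 lists of day 4 (230) and day 8 (111) were dropped. Sequence and annotation were TAIR10.1, whose nuclear chromosomes are those of TAIR10, and 613 of 28685 deposited pairs of a peak and a gene name a locus it does not hold.

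With Python 3.11.15 and SciPy 1.17.1, peaks naming a member were ranked by fold enrichment within their list (ties given their mean), merged at an overlap of at least 1 bp and placed on the annotation. Values are descriptions without a test. Functions were tested on simulated data. The loci, targets and biogenesis genes were chosen with earlier results of these data known. Values of each peak are given for loci listed for AP1, or for SEP3 on all 3 days, and the others are summarised. Alternatives were a −log10 q of at least 10, lists of equal length, recomputed windows, the nearest gene, other overlap rules, rank by −log10 q, and a wider or looser motif search.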

Additional observations from a re-analysis of the deposited data

How the results depend on the processing

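Each list is 1 pool of replicates, so no replicate could be left out. No paired analysis was possible because the values come from no test and the lists carry no replicate columns. Recomputing the window on the annotation used here kept all 8 counts of listed loci within 1.5 times, as did ranking by −log10 q for the 6 median percentiles and summits within 150 bp for the 9 overlap shares. A motif window of 100 bp left 5 of the 6 motif shares as they were and gave 16.7% (2 of 12 peaks) for AP1 on day 4, from 8.33%.

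A −log10 q of at least 10 left 2, 6 and 3 loci for AP1 on days 2, 4 and 8, and 2, 6 and 3 AP1 peaks, with 9 and 30 SEP3 peaks on days 2 and 4. With every list reduced to its 498 strongest peaks, AP1 named 4 and 3 loci on days 4 and 8 and SEP3 7, 5 and 4 on days 2, 4 and 8, or 12 over the days, and the excess of SEP3 over AP1 loci seen on days 4 and 8 was then at most 1 locus. A window of 1000 bp upstream to the gene end left 4, 5 and 2 AP1 loci, 5 over the days, and 14 SEP3 loci on day 4. Counting a locus only where it was the nearest gene left 7 for AP1 on day 4, 7 over the days, and 8 for SEP3 on day 2. The share of all genes is not given for the q cut, the shortened lists, the narrow window or the nearest gene. These counts of loci therefore do not show whether the loci stay above all genes under those settings. A reciprocal overlap of 50% cut the peaks of day 2 found on day 4 to 33.3% for AP1 and 15.8% for SEP3 (all peaks 51% and 18%), and the AP1 peaks overlapped by SEP3 to 44.4%, 16.7% and 0%, from 77.8%, 100% and 100% (all AP1 peaks 53%, 39.9% and 27.6%, from 85.1%, 99.8% and 96.3%). Peak widths differ between lists. With 1 mismatch allowed, boxes were found at 41.7% and 71.4% of AP1 peaks on days 4 and 8 and at 31.6%, 37% and 37.8% of SEP3 peaks, where the shares over all peaks of these 5 lists lay between 31.9% and 34.7%.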
